A study of Homo sapiens with 4 samples.

Results

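The machinery that brings newly made proteins into the endoplasmic reticulum (ER) and attaches N-linked glycans to them was examined as 46 named genes. They were taken by symbol from the 23444 gene entries of a count table and an FPKM table (fragments scaled by gene length and by library size), and all 46 were found. The genes cover 6 roles, with 8 in signal recognition, 11 in the translocon, 5 in the signal peptidase, 9 in the oligosaccharyltransferase, 9 in assembly of the oligosaccharide and 4 in glucose trimming and its folding sensor. RNA came from the established glioblastoma line U87-MG, of human origin, as 4 bulk RNA-seq libraries. Of these, 2 carried a negative control hairpin (shCON) and 2 a hairpin against MAGED2 (shMAGED2). The series design calls the knockdown stable, whereas the treatment protocol names hairpins against ZDHHC15 and a scrambled control, transfected transiently, with harvest at 36 h, and this conflict was not resolved. The labels do not say whether the libraries of a group came from separate cultures or how many hairpins or clones were used, so p-values measure the spread between these libraries, which may be technical.

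In this pathway the signal recognition particle binds the signal sequence of a growing chain and docks the ribosome, through its receptor, at the Sec61 channel of the ER membrane. The signal peptidase removes the signal sequence, and the oligosaccharyltransferase moves a preassembled sugar tree from the lipid dolichol onto asparagine residues of the chain. The tree is built stepwise by the ALG enzymes, and after transfer its glucoses are trimmed by glucosidases, which hands the protein to the lectin chaperones calnexin and calreticulin. Mammalian cells hold separate oligosaccharyltransferase complexes: one with the catalytic subunit STT3A sits at the translocon and acts as the chain enters, and one with STT3B and an oxidoreductase subunit, MAGT1 or TUSC3, also acts on sites that were skipped.

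Libraries held 28673774 to 36234336 counts. MAGED2 stood at 175 and 178 CPM (the count relative to the TMM-scaled library total) in shCON and at 17.9 and 21.7 CPM in shMAGED2, a log2 change of -3.16 (SE 0.13, adjusted p = 0.000654 by edgeR's quasi-likelihood test with Benjamini-Hochberg adjustment). ZDHHC15 had 0 counts in every library. One library, shMAGED2 replicate 1, stood apart: its 13 mitochondrially encoded genes took 10.1% of counts, against 3.90 to 4.87% in the other 3. Among markers, VIM, CD44 and FN1 were high, and the glial markers GFAP (at most 3.03 CPM), SOX9 (at most 1.05 CPM), S100B, SOX2 and AQP4 were low or at 0. OLIG2 fell from 5.16 and 5.76 CPM to 1.77 and 2.21 CPM, and NES, a progenitor marker, rose from 4.73 and 5.66 CPM to 19.3 and 18.8 CPM; their part in the results was not tested. The leukocyte, endothelial and epithelial markers PTPRC, PECAM1, CDH5, EPCAM and KRT19 were at most 2.17 CPM, whereas the lysosomal and myeloid marker CD68 stood at 380 to 602 CPM and overlapped between groups.

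Of the 46 genes, 45 had enough counts to be tested, and TUSC3 did not. Among the 45, 8 fell in shMAGED2 (17.8%), 1 rose (2.22%) and 36 did not pass an adjusted p of 0.05 in edgeR's quasi-likelihood test. Over all 15293 genes tested, 11.6% fell and 12.3% rose. The genes that fell were the oligosaccharyltransferase subunits STT3B, OSTC and MAGT1, the translocon genes SEC61A1, SEC63 and TRAM1, the signal peptidase subunit SPCS2 and the mannosyltransferase ALG12, and the gene that rose was the mannosyltransferase ALG3. No gene of signal recognition or glucose trimming passed the test. Every change was less than 2-fold, with log2 changes from -0.91 (OSTC) to 0.56 (SRP14, not called) and a median of -0.16, against 0.003 over all genes. Both shMAGED2 libraries lay below both shCON libraries for 22 genes (48.9%) and above them for 9 (20.0%), against 33% each way over all genes tested, and the groups overlapped for the other 14. With a stricter filter of 5 CPM in 2 libraries, 45 genes of the set were tested, of which 10 fell and 1 rose. Over the 11399 genes past that filter, 15.7% fell and 15.3% rose. Because these are bulk libraries, fewer cells of a type and less RNA per cell cannot be told apart.

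**Figure D1:**
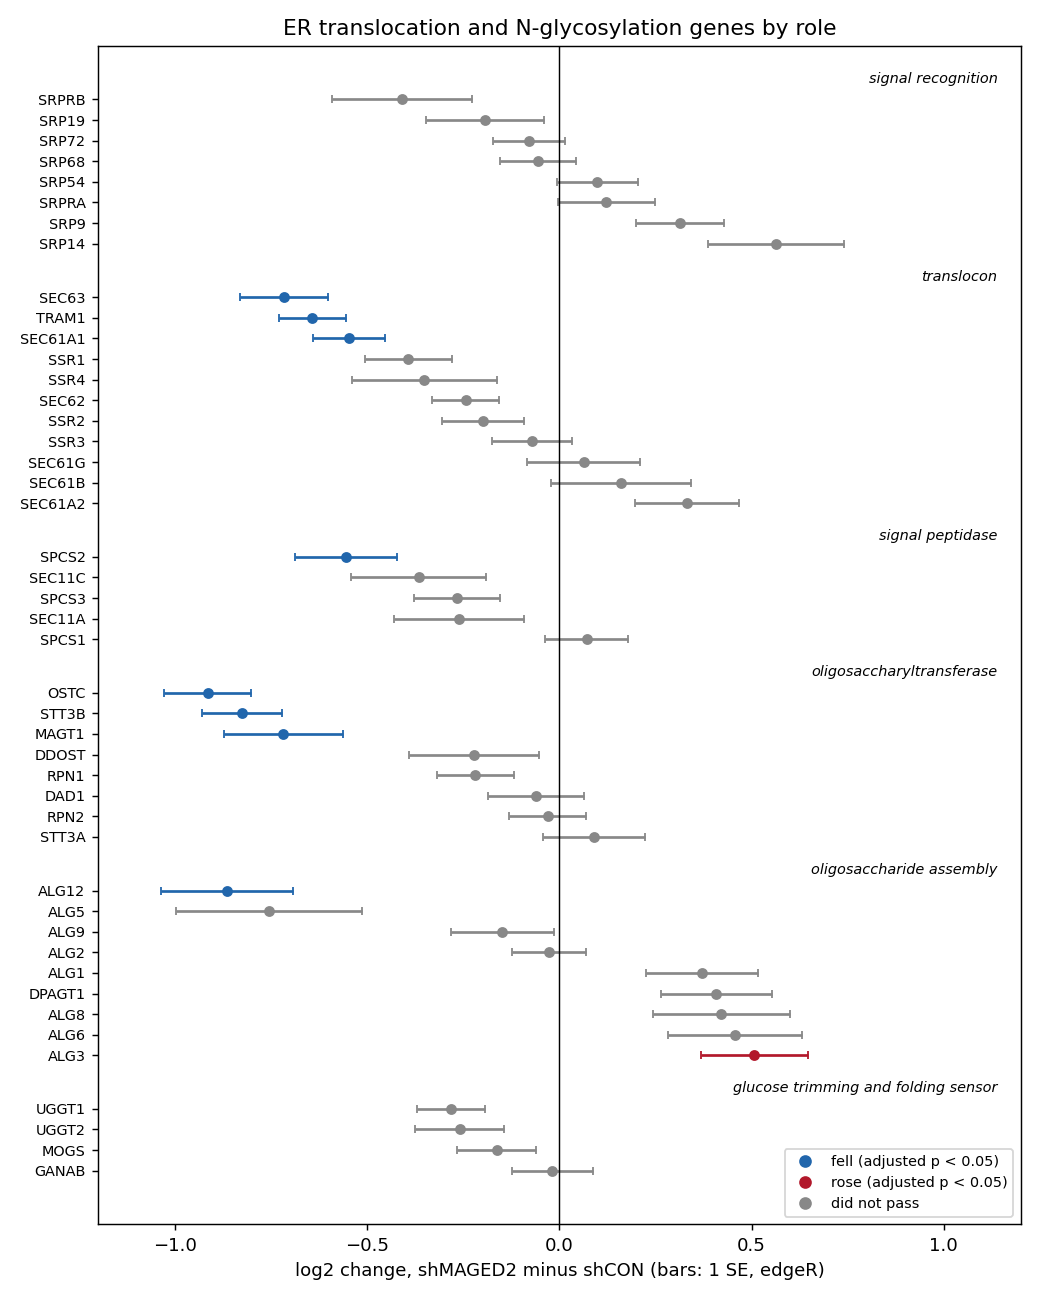
Log2 change, shMAGED2 minus shCON, of the 45 tested genes grouped by role, with bars of 1 SE and points coloured blue (fell), red (rose) or grey (did not pass an adjusted p of 0.05, edgeR). The called genes lie in 4 of the 6 roles, and estimates run from -0.91 to 0.56.

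The oligosaccharyltransferase had 3 genes that fell among 8 tested (37.5%, beside 11.6% of all genes) and none that rose (beside 12.3%). Its subunits differed in level and in change. STT3B, a catalytic subunit, stood at 469.9 and 489.9 CPM in shCON and at 251 and 290.1 CPM in shMAGED2. Its log2 change was -0.83 (SE 0.10, adjusted p = 0.00479, edgeR's quasi-likelihood test with Benjamini-Hochberg adjustment), which left 56.4% of the control level. Both shMAGED2 libraries lay far below both controls, and the gap was wide against the spread within either group. STT3A, the other catalytic subunit, stood at 90.7 and 94.2 CPM in shCON and at 109.7 and 87 CPM in shMAGED2, so the groups overlapped (log2 change 0.09, SE 0.13, adjusted p = 0.667 in edgeR's quasi-likelihood test with Benjamini-Hochberg adjustment).

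OSTC is a small subunit found in the STT3A complex, where it holds the enzyme at the translocon. It stood at 108 and 102 CPM in shCON and at 51.7 and 59.4 CPM in shMAGED2, a log2 change of -0.91 (SE 0.11, adjusted p = 0.00439, edgeR's quasi-likelihood test with Benjamini-Hochberg adjustment) and 53.0% of the control level. This was the lowest share of control among the 8 genes that fell. STT3B and OSTC were the only members called in all 17 other settings that were run.

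MAGT1, the oxidoreductase subunit of the STT3B complex, also fell. It stood at 114 CPM in both shCON libraries and at 59.0 and 79.5 CPM in shMAGED2, with a log2 change of -0.72 (SE 0.15, adjusted p = 0.0235, edgeR's quasi-likelihood test with Benjamini-Hochberg adjustment). The shMAGED2 libraries were both low but spread apart, and the library with the high mitochondrial share was the lower. MAGT1 was not called in the 3 fits on FPKM values, nor without either control library. TUSC3, its paralog, had 0 counts in 3 libraries and 10 counts in shMAGED2 replicate 2, and it was not tested. In the controls 3 counts correspond to 0.086 and 0.102 CPM, the limit that a count of 0 allows, counting error only.

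The structural subunits did not pass the test. RPN1 stood at 328 and 345 CPM in shCON and at 307 and 271 CPM in shMAGED2 (log2 change -0.22, SE 0.10), with no overlap. DDOST was at 286 and 291 CPM in shCON, and its shMAGED2 libraries disagreed, with 204 CPM in the library with the high mitochondrial share and 291 CPM in the other. RPN2 and DAD1 had log2 changes of -0.03 and -0.06 and overlapped between groups. None of the 3 further subunits tested passed either: OST4 had a log2 change of 0.58 (adjusted p = 0.0994 in edgeR's quasi-likelihood test with Benjamini-Hochberg adjustment), KRTCAP2 of 0.16 and TMEM258 of -0.29.

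Levels per gene length allow subunits to be compared with each other. In FPKM, STT3B stood at 111 ± 3.24 in shCON and 60.3 ± 8.98 in shMAGED2 (SD, n = 2), and STT3A at 20.2 ± 0.358 and 20.6 ± 2.24. STT3B transcripts were thus 5.45 and 5.54 times as abundant as STT3A transcripts in the controls, and 2.43 and 3.50 times in shMAGED2. The ratio of OSTC to STT3A was 4.96 and 4.55 in shCON and 1.98 and 2.84 in shMAGED2. The ratio of MAGT1 to STT3A was 1.63 and 1.59 in shCON and 0.645 and 1.21 in shMAGED2. All 3 ratios were lower in both shMAGED2 libraries, by 0.91, 1.00 and 0.86 on the log2 scale of the group means. An exact two-sided permutation test gave p = 0.333 for each, which is the smallest value that 2 libraries against 2 allow.

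**Figure D2:**
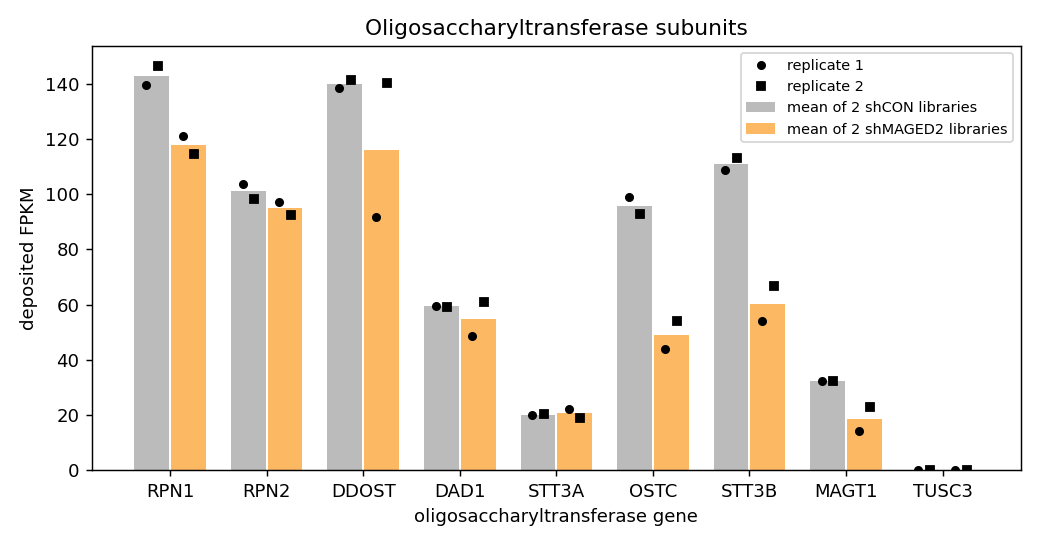
Deposited FPKM of the 9 oligosaccharyltransferase subunits, with grey bars for the mean of 2 shCON libraries, orange bars for the mean of 2 shMAGED2 libraries, and a circle (replicate 1) or square (replicate 2) for each library. The points of STT3B, OSTC and MAGT1 separate widely by group, those of STT3A, DDOST and DAD1 overlap, and TUSC3 lies at or near 0.

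In the translocon, 3 of 11 genes fell (27.3%, beside 11.6% of all genes) and none rose (beside 12.3%). The median log2 change was -0.24. SEC61A1 encodes the pore-forming subunit and had the highest control level of all 46 genes per length, at 189 ± 1.43 FPKM (SD, n = 2). It stood at 704 and 697 CPM in shCON and at 454 and 504 CPM in shMAGED2, with a log2 change of -0.55 (SE 0.09, adjusted p = 0.0119, edgeR's quasi-likelihood test with Benjamini-Hochberg adjustment). The groups were clearly apart. Its paralog SEC61A2 stood at 16.9 and 18.3 CPM in shCON and 22.2 and 22.1 CPM in shMAGED2, higher in both libraries but not called (log2 change 0.33, SE 0.14, adjusted p = 0.131, edgeR's quasi-likelihood test with Benjamini-Hochberg adjustment). SEC61A1 exceeded SEC61A2 in FPKM by 21.0 and 19.9 times in the controls and by 11.6 and 11.9 times in shMAGED2, and the exact two-sided permutation test of that ratio gave p = 0.333, the smallest possible. SEC61A2 shares 387 exonic bases (9.88%) with NUDT5 on the opposite strand, which stood at 136 to 164 CPM, and the part of NUDT5 in this ratio was not tested.

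The small channel subunits SEC61B and SEC61G had log2 changes of 0.16 and 0.06 and overlapped between groups. SEC63, a membrane J-domain protein that recruits the lumenal Hsp70 chaperone to the channel, fell. It stood at 217 and 219 CPM in shCON and at 145 and 121 CPM in shMAGED2 (log2 change -0.72, SE 0.12, adjusted p = 0.00969, edgeR's quasi-likelihood test with Benjamini-Hochberg adjustment). Its partner SEC62 stood at 184 and 189 CPM against 157 and 158 CPM, lower in both libraries but short of the threshold (log2 change -0.24, SE 0.09, adjusted p = 0.0943, edgeR's quasi-likelihood test with Benjamini-Hochberg adjustment).

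TRAM1, which contacts signal sequences beside the channel, stood at 396 and 397 CPM in shCON and at 261 and 247 CPM in shMAGED2 (log2 change -0.64, SE 0.09, adjusted p = 0.00577, edgeR's quasi-likelihood test with Benjamini-Hochberg adjustment). The replicates of each group nearly coincided, so the difference far exceeded their spread. The 4 subunits of the translocon-associated protein complex, SSR1 to SSR4, had log2 changes of -0.39, -0.20, -0.07 and -0.35, and none passed. SSR1 came closest, at 107 and 104 CPM in shCON and 86.8 and 73.8 CPM in shMAGED2 (adjusted p = 0.0548, edgeR's quasi-likelihood test with Benjamini-Hochberg adjustment). Of 10 further translocon and accessory genes, 1 rose (10.0%) and none fell, beside 12.3% and 11.6% of all genes. It was NCLN (log2 change 0.47, SE 0.11, adjusted p = 0.0341, edgeR's quasi-likelihood test with Benjamini-Hochberg adjustment), which was not called with library size alone, in the 3 FPKM fits or without either control library. NOMO1, NOMO2 and NOMO3, near-identical copies on that list whose counts are uncertain, had log2 changes of 0.18, 0.08 and 0.01.

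Among the 5 signal peptidase genes, SPCS2 fell (20%, beside 11.6% of all genes) and 4 did not pass. SPCS2, an accessory subunit, stood at 38.1 and 37.5 CPM in shCON and at 23.7 and 27.7 CPM in shMAGED2 (log2 change -0.56, SE 0.13, adjusted p = 0.0317, edgeR's quasi-likelihood test with Benjamini-Hochberg adjustment). The annotation holds 4 pseudogenes named for SPCS2 and 6 named for OSTC, and how reads matching several loci were counted is not given. The alternative catalytic subunits SEC11A and SEC11C did not pass (log2 changes -0.26 and -0.37, SE 0.17 and 0.18). SEC11A stood at 116 and 107 CPM against 77.8 and 109 CPM, with overlap, and SEC11C at 10.5 and 11.4 CPM against 8.39 and 8.55 CPM, without overlap. Their FPKM ratio was 11.0 and 8.66 in shCON and 8.60 and 11.8 in shMAGED2, also overlapping. SPCS3 was at 257 CPM in both controls and at 195 and 232 CPM in shMAGED2 (log2 change -0.27, SE 0.11), and SPCS1 had a log2 change of 0.07.

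**Figure D3:**
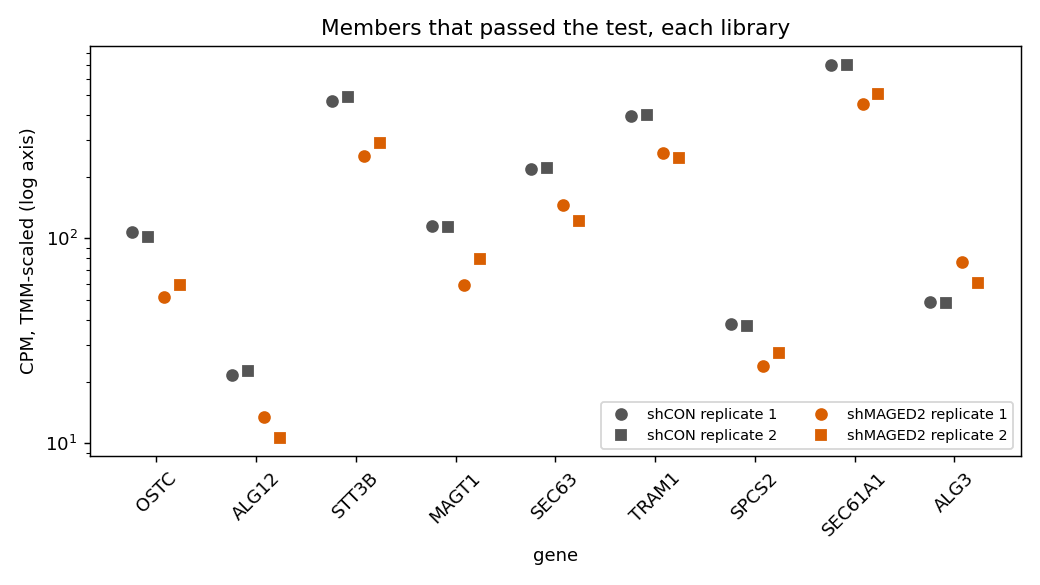
TMM-scaled CPM on a log axis in each library (grey shCON, orange shMAGED2, circles replicate 1, squares replicate 2) for the 9 genes of the set that passed an adjusted p of 0.05 (edgeR). For the 8 genes that fell both shMAGED2 points lie below both shCON points, and for ALG3 both lie above.

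Oligosaccharide assembly was the only role with calls in both directions: of 9 genes, 1 fell and 1 rose. These shares (11.1% each way) were near the 11.6% of all genes that fell and 12.3% that rose. The median log2 change was 0.37. None of the 9 overlapped between groups, with 4 lower (44.4%) and 5 higher (55.6%) in both shMAGED2 libraries, beside 33% each way over all genes; the 4 include ALG2, whose log2 change was only -0.03. ALG12, which adds a mannose to a late branch of the tree, stood at 21.4 and 22.5 CPM in shCON and at 13.5 and 10.6 CPM in shMAGED2. Its log2 change was -0.87 (SE 0.17, adjusted p = 0.0187, edgeR's quasi-likelihood test with Benjamini-Hochberg adjustment), leaving 54.9% of the control level. ALG3, which adds the first mannose on the lumenal side, stood at 48.6 and 48.3 CPM in shCON and at 77.0 and 60.8 CPM in shMAGED2 (log2 change 0.51, SE 0.14, adjusted p = 0.0474, edgeR's quasi-likelihood test with Benjamini-Hochberg adjustment). The rise of ALG3 was close to the threshold and was called in 9 of 17 other settings, in which its log2 change ranged from 0.33 to 0.67.

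The first enzyme of the route, DPAGT1, stood at 20.2 and 21.8 CPM in shCON and 30.2 and 25.6 CPM in shMAGED2 (log2 change 0.41, SE 0.15, adjusted p = 0.0941, edgeR's quasi-likelihood test with Benjamini-Hochberg adjustment). The early mannosyltransferases ALG1 and ALG2 had log2 changes of 0.37 and -0.03, and neither passed. The enzymes that add glucose went different ways without passing. ALG5, which makes the glucose donor on dolichol, stood at 34.5 and 29.7 CPM against 14.5 and 23.5 CPM (log2 change -0.76, SE 0.24, adjusted p = 0.0716, edgeR's quasi-likelihood test with Benjamini-Hochberg adjustment). ALG6 and ALG8, which use that donor, had log2 changes of 0.46 and 0.42, and both shMAGED2 libraries were higher. ALG9, which acts beside ALG12, had a log2 change of -0.15.

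ALG12 lies on chromosome 22 at 49900229-49918458 (GRCh38, GENCODE 29, minus strand), and 168 of its exonic bases (3.14%) are shared with exons of CRELD2, which starts in the other direction at 49918167-49927540. CRELD2, named because it overlaps ALG12, stood at 33.6 and 30.5 CPM in shCON and at 9.92 and 9.89 CPM in shMAGED2 (log2 change -1.70, SE 0.14, adjusted p = 0.00138, edgeR's quasi-likelihood test with Benjamini-Hochberg adjustment). Whether the counting used strand is not known here, so reads in the shared bases cannot be told apart, and the part of CRELD2 in the ALG12 value was not tested. SEC61A1 (chromosome 3, 128051641-128071683, plus strand) shares 344 exonic bases (7.32%) with RUVBL1 on the opposite strand, which rose (log2 change 0.54, adjusted p = 0.0174, edgeR's quasi-likelihood test with Benjamini-Hochberg adjustment). The other 6 called genes shared no exonic bases with another protein-coding gene on GRCh38, and noncoding genes were not screened. ALG3 (chromosome 3, 184242301-184249548, minus strand) shared 29 bases (0.837%) with VWA5B2, which had at most 0.436 CPM, and STT3A shared 80 (1.08%) with CHEK1 on the same strand, which rose (log2 change 0.73, adjusted p = 0.015, edgeR's quasi-likelihood test with Benjamini-Hochberg adjustment). The largest shares were in genes not called: SPCS1 with NEK4 (50.7%), ALG9 with AP001781.2 (24.4%), DPAGT1 with C2CD2L (21.3%) and ALG1 with EEF2KMT (20.1%). SRP19 shared 3.50% with REEP5, which stood at 205 and 198 CPM in shCON and at 93.5 and 108 CPM in shMAGED2. The part of these neighbours in the values was not tested. STT3B lies on chromosome 3 at 31532638-31637622 (plus strand), OSTC on chromosome 4 at 108650584-108667820 (plus strand) and MAGT1 on chromosome X at 77826364-77895593 (minus strand).

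Promoters of these genes were read for the ER stress elements through which the factors ATF6 and XBP1 are known to act. RefSeq promoters on GRCh38.p14, from 250 bases before to 50 after the start, were found for 39 of the 46 genes. SRPRA, TRAM1, SPCS1, RPN1, STT3B, TUSC3 and MOGS had none. The element ERSE was searched as CCAAT, 9 bases, CCACG, and ERSE-II as ATTGG, 1 base, CCACG, both on either strand. ERSE was present in 22 of 27305 promoters (0.0806%), and ALG12 was the only one of the 39 genes with it, at -134 to -116 from the start. ERSE-II was present in 15 promoters (0.0549%) and in none of the 39. The core TGACGTGG of the element UPRE, whose reverse complement can overlap the CCACG of ERSE, was in 217 promoters (0.795%) and, among these genes, in SRP19 and SEC62, neither of which was called. Of 73 other genes of the wider pathway lists for which a promoter was found, 4 had ERSE: CALR, CANX, HSPA5 and XBP1, while HYOU1 had ERSE-II. Those lists include unfolded protein response factors and were chosen with earlier results of these data known, so their matches are not a test. The UPRE core was present in 2 of the 73, HYOU1 and DHDDS, the latter not called. A match describes letters in this window and not a bound site. The ALG12 match lies within the annotated span of CRELD2, which runs on the opposite strand and fell further (log2 change -1.70). Which gene the element serves was not tested. The stretches of ALG12 (chr22:49918524-49918602, minus strand), CALR (chr19:12938359-12938432, plus strand) and HSPA5 (chr9:125241361-125241439, minus strand) are shown to compare the element, in capitals, which CALR carries in the reverse direction.
ALG12: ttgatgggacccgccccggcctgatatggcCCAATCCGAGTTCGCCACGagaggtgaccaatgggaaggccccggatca
CALR: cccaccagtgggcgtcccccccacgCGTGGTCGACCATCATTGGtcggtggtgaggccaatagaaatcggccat
HSPA5: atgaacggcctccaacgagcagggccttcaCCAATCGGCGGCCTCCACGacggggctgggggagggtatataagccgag

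Signal recognition had no call among 8 genes, beside 11.6% of all genes that fell and 12.3% that rose. Its median log2 change was 0.02. The smallest p-values belonged to SRP14 and SRP9, which form the domain of the particle that slows elongation. SRP14 stood at 156 and 151 CPM in shCON and at 268 and 185 CPM in shMAGED2 (log2 change 0.56, SE 0.18, adjusted p = 0.0682, edgeR's quasi-likelihood test with Benjamini-Hochberg adjustment). SRP9 stood at 203 and 205 CPM in shCON and at 230.3 and 277 CPM in shMAGED2 (log2 change 0.31, SE 0.11, adjusted p = 0.10, edgeR's quasi-likelihood test with Benjamini-Hochberg adjustment). Both were higher in each shMAGED2 library, but the libraries of that group lay far apart, and for SRP14 the higher was the one with the high mitochondrial share.

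SRPRB, the membrane anchor of the receptor, stood at 53.1 and 47.4 CPM in shCON and at 31.4 and 44.1 CPM in shMAGED2 (log2 change -0.41, SE 0.18, adjusted p = 0.158, edgeR's quasi-likelihood test with Benjamini-Hochberg adjustment). SRP19, which helps to assemble the particle, stood at 48.2 and 53.9 CPM against 50.3 and 39.2 CPM, with overlap. SRP54, which binds the signal sequence, SRP68, SRP72 and the receptor subunit SRPRA had log2 changes between -0.08 and 0.12.

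Glucose trimming and folding sensing had no call among 4 genes, beside 11.6% of all genes that fell and 12.3% that rose. All 4 estimates were below 0. UGGT1, which adds glucose back to misfolded glycoproteins, came closest at 196 and 188 CPM in shCON and 159.8 and 156 CPM in shMAGED2 (log2 change -0.28, SE 0.09, adjusted p = 0.0666, edgeR's quasi-likelihood test with Benjamini-Hochberg adjustment). Its paralog UGGT2 stood at 57.3 and 65.9 CPM against 52.2 and 50.7 CPM (log2 change -0.26, SE 0.12), and the FPKM ratio of UGGT1 to UGGT2 overlapped between groups, at 1.60 and 1.29 against 1.33 and 1.35. MOGS, glucosidase I, stood at 66.9 and 73.1 CPM against 61.6 and 63.4 CPM, also without overlap (log2 change -0.16, SE 0.10). GANAB, the catalytic subunit of glucosidase II, stood at 491 and 502 CPM against 453 and 528 CPM, with overlap (log2 change -0.02, SE 0.10).

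Genes that feed the pathway were read from further lists, chosen with earlier results of these data known, beside the 11.6% of all genes that fell and 12.3% that rose. Of 11 genes for sugar nucleotide supply, 4 fell (36.4%) and none rose, with a median log2 change of -0.40. GFPT1, an entry enzyme of hexosamine synthesis, stood at 433 and 441 CPM in shCON and at 149.7 and 179 CPM in shMAGED2 (log2 change -1.41, SE 0.11). PGM3 and UAP1, which act later in the same route, had log2 changes of -1.01 and -0.44 and also fell. GFPT2, the other GFPT gene, and GNPNAT1, of the same route, did not pass (log2 changes -0.22 and 0.26). In mean FPKM, GFPT2 stood at 72.6 in shCON and 60.1 in shMAGED2, and GFPT1 at 49.7 and 18.0. UGP2, which makes UDP-glucose, fell as well (-0.55 on the log2 scale), while none of the GDP-mannose genes PMM1, PMM2, MPI, GMPPA and GMPPB passed. Of 15 further dolichol and assembly genes, 2 rose (13.3%) and 1 fell (6.67%), near the shares over all genes. MPDU1, needed to use dolichol-linked mannose and glucose, rose from 33.0 and 32.2 CPM to 63.0 and 58.6 CPM (log2 change 0.90, SE 0.11), and DPM2, a subunit of the enzyme that makes the mannose donor, rose by a log2 change of 0.91 (SE 0.13). NUS1, a subunit of the enzyme that builds dolichol chains, fell, with a log2 change of -0.64. Without either control library NUS1 and UGP2 were no longer called, and DPM2 was not called without shCON replicate 1 (adjusted p = 0.0577, edgeR's quasi-likelihood test with Benjamini-Hochberg adjustment).

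Chaperones that receive chains from the translocon included log2 changes larger than any among the 46 genes. Of 5 genes of the Hsp70 system at the translocon, 4 fell (80.0%, beside 11.6% of all genes), with a median log2 change of -1.05. HSPA5, the lumenal Hsp70 that SEC63 recruits, stood at 5582 and 5501 CPM in shCON and at 821 and 904 CPM in shMAGED2 (log2 change -2.68, SE 0.10, adjusted p = 0.000654, edgeR's quasi-likelihood test with Benjamini-Hochberg adjustment). HYOU1, its nucleotide exchange factor, and the J-domain proteins DNAJB11 and DNAJC1 fell with log2 changes of -1.67, -1.05 and -0.82, and SIL1 did not pass. Of 5 lectin cycle genes, 4 fell (80%, beside 11.6% of all genes): CALR (log2 change -1.11), PDIA3 (-1.07), CANX (-0.92) and MLEC (-0.53). The glucosidase II regulatory subunit PRKCSH did not pass (0.03), nor did its catalytic partner GANAB.

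Of 5 transcription factors of the unfolded protein response, 3 fell (60%, beside 11.6% of all genes). They were DDIT3, ATF4 and XBP1, with log2 changes of -3.14, -1.76 and -1.31. ATF6 and ATF6B did not pass, with log2 changes of -0.34 and 0.00. The plot of the lists sets these values beside the 46 genes, which span a narrower range.

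**Figure D4:**
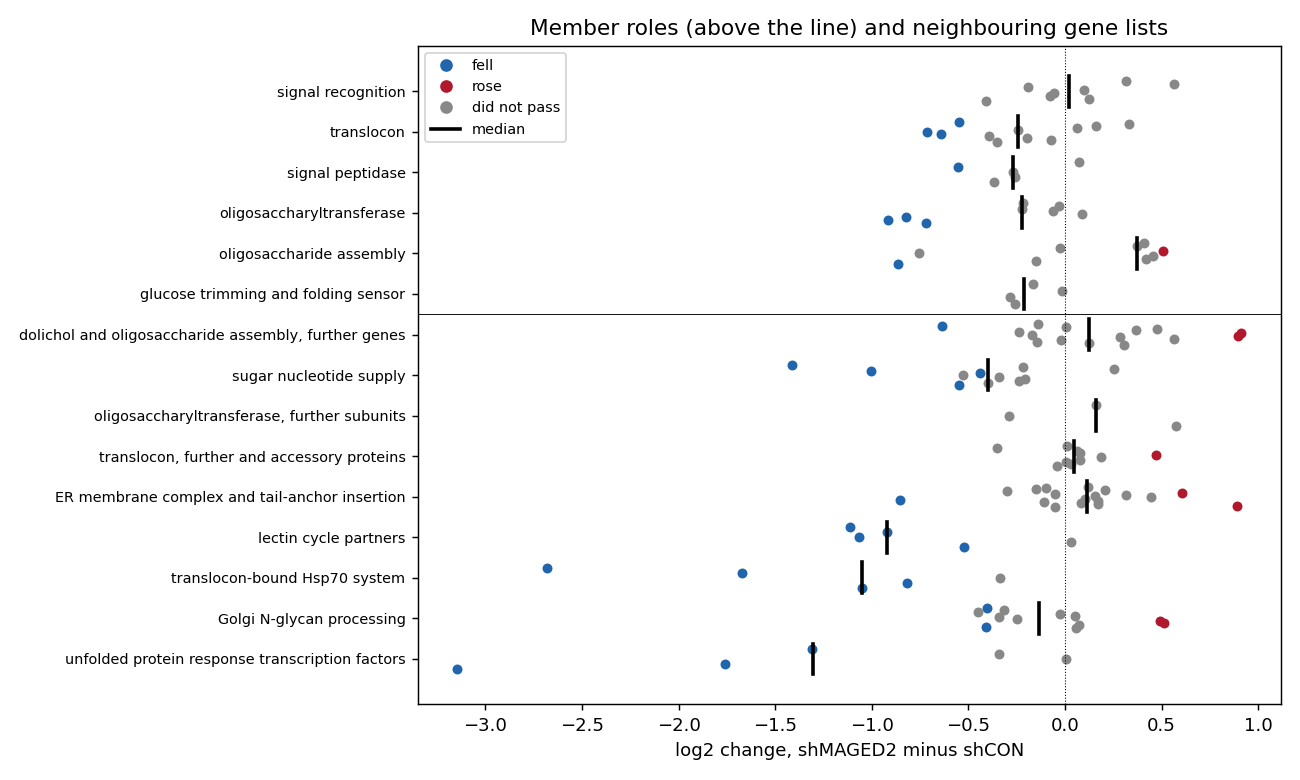
Log2 change, shMAGED2 minus shCON, of each tested gene in the 6 roles (above the line) and in 9 further lists, with 1 point per gene (blue fell, red rose, grey did not pass) and a bar at each median. The roles have medians from -0.27 to 0.37, and the lists of lectin cycle partners, the translocon-bound Hsp70 system and unfolded protein response factors have medians of -0.92, -1.05 and -1.31.

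The number of calls changed with the library left out. A group left with 1 library takes its spread from the other pair, and the pairs differed. Chi-square per degree of freedom of the counts was 89.5 between the shMAGED2 libraries and 7.42 between the shCON libraries. Without shCON replicate 1, or without shCON replicate 2, only STT3B and OSTC of the 46 were called and none of the 46 rose, beside 3.37% or 3.85% of all genes that fell and 3.59% or 4.12% that rose. Without shMAGED2 replicate 1, the library with the high mitochondrial share, 18 of the 46 fell and 4 rose, beside 20.0% and 21.1% of all genes. Without shMAGED2 replicate 2 they were 21 and 8, beside 23.5% each way over all genes. All 9 genes called with the 4 libraries were called in each of these last fits and kept their direction in every fit run.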

How the data were processed

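RNA-seq covered 4 U87-MG libraries, for which the labels' protocols name the NEBNext Ultra RNA kit. The authors deposited raw counts per gene and FPKM values per gene, made on hg38 with HISAT2, StringTie and SAMtools, per the submitters' processing notes. Neither the annotation nor the strand setting is given in the sources used here. Library totals were 28673774 to 36234336 counts, and 85.2% of the entries carried an Ensembl identifier. Genes were filtered with filterByExpr (minimum count 10), scaled by TMM and tested with edgeR 4.0.16 (R 4.3.3), robust quasi-likelihood fit with group alone, with Benjamini-Hochberg adjustment across 15293 genes. The residual degrees of freedom were 2, and the biological coefficient of variation was 0.167. Standard errors are the log2 change over the root of the F statistic. FPKM values served to compare levels between genes, and were fitted on log2(FPKM + 1) with limma 3.58.1 as an alternative. DESeq2 1.42.0 was another.

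The 46 genes and all lists were chosen with earlier results of these data known. Values in every library are given for up to 4 genes of each role with the smallest p, for those that rose and for paralog pairs. In further lists up to 3 genes with the smallest p are named by rule, and others were added after their values were seen. Of these lists, only the genes named by rule were examined in the alternatives. Alternatives changed the scaling, the filter, the tool and the libraries used. Coordinates are 1-based, from GENCODE 29 on GRCh38.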

Additional observations from a re-analysis of the deposited data

How the results depend on the processing

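STT3B and OSTC were called in all 17 alternatives (16 planned, 1 added after seeing the data). TRAM1 and SEC63 were called in 15, SEC61A1, SPCS2 and ALG12 in 14, MAGT1 in 12 and ALG3 in 9, and none of the 9 changed direction. Adjusted p-values reached at most 0.0481 for STT3B and 0.042 for OSTC. Each fit without 1 library has 1 residual degree of freedom, and takes the spread of the single library left in that group from the other group.

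Leaving out 1 library moved genes that fell to 533 to 3722, genes that rose to 567 to 3725, members that fell to 2 to 21, members that rose to 0 to 8 and the members' median log2 change to -0.17 to -0.11. On log2(FPKM + 1) with no filter, 717 genes and 4 members fell, and 642 genes and 0 members rose. On log2(FPKM + 0.1), 1236 genes rose. Members that rose were 2 with DESeq2 and with no count filter, and 0 with library size alone, limma-voom and upper-quartile factors. The members' median was -0.22 with library size alone and on log2(FPKM + 0.1), and -0.21 on log2(FPKM + 1) and with upper-quartile factors. With the mitochondrially encoded genes removed, added after seeing the data, 8 members fell and 1 rose.

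With the replicate number as a block, 9 members fell and 2 rose. Same-numbered libraries did not deviate together (correlation -0.02 over 15293 genes). The shMAGED2 pair differed far more than the shCON pair (chi-square per degree of freedom 89.5 against 7.42). The correlation therefore cannot show whether same-numbered libraries shared a culture or day.

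Some genes not called in the main fit passed in other fits with all libraries. ALG6 rose in the filtered FPKM fits, and SRP14 rose with DESeq2, no count filter and the replicate block. ALG5 fell in the same settings in which SRP14 rose. SSR1 and UGGT1 fell with upper-quartile factors, library size alone and a filter of 5 CPM in 2 libraries. SSR1 also fell with DESeq2 and no count filter. Signs turned for other uncalled genes. SPCS1 was -0.007 in the 3 FPKM fits. Leaving out 1 library gave ranges of -0.182 to 0.049 for DAD1, -0.503 to 0.010 for DDOST, -0.134 to 0.088 for GANAB, -0.022 to 0.318 for KRTCAP2, -0.117 to 0.050 for RPN2, -0.127 to 0.395 for SEC61B, -0.081 to 0.192 for SEC61G, -0.022 to 0.156 for SPCS1, -0.121 to 0.006 for SRP68, -0.036 to 0.264 for SRPRA, -0.176 to 0.026 for SSR3, -0.086 to 0.246 for STT3A and -1.063 to 0.202 for TMEM258.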

Other observations

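Further along the glycan route, 12 of 15 Golgi N-glycan processing genes were tested, of which 2 rose and 2 fell by edgeR's quasi-likelihood test (16.7% each way, beside 12.3% and 11.6% of all genes, median log2 change -0.14). The branching enzymes MGAT4B and MGAT5 rose: MGAT4B stood at 276 and 267 CPM in shCON and 371 and 393 CPM in shMAGED2 (log2 change 0.49, SE 0.09), and MGAT5 at 52.2 and 48.3 CPM against 70.3 and 73.0 CPM (0.51, SE 0.10). The mannosidase MAN1A1 and the galactosyltransferase B4GALT1 fell, with log2 changes of -0.40 (SE 0.09) and -0.41 (SE 0.09). No library overlapped between groups for these 4 genes, which were picked by the test on the same libraries. Of the 12 tested, 6 were lower (50%) and 2 higher (16.7%) in both shMAGED2 libraries, beside 33% each way over all genes. MGAT4B and MGAT5 (adjusted p = 0.0134 and 0.0202, edgeR with Benjamini-Hochberg adjustment) were not called in the 3 FPKM fits or without either control library, where adjusted p ran from 0.119 to 0.234 and from 0.0717 to 0.259. B4GALT1 was also not called without either control library or on log2(FPKM + 1) with no filter. With the replicate block it just missed the threshold (adjusted p = 0.0501, edgeR with Benjamini-Hochberg adjustment). MAN1A1 was not examined in the other settings.

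Other membrane insertion routes were read from a list of 18 genes of the ER membrane complex and of tail-anchor insertion, with a median log2 change of 0.11. Here 2 rose (11.1%) and 1 fell (5.56%), at or below the 12.3% and 11.6% of all genes: SGTA, a cytosolic co-chaperone of tail-anchored proteins, stood at 81.3 and 75.1 CPM against 175 and 115 CPM (log2 change 0.89, SE 0.20), EMC6 had a log2 change of 0.61 (SE 0.14), and CAMLG, part of the receptor for tail-anchored proteins, stood at 78.6 and 77.4 CPM against 32.1 and 54.2 CPM (log2 change -0.85, SE 0.24, adjusted p = 0.0492, edgeR with Benjamini-Hochberg adjustment). CAMLG was not called with library size alone, with no count filter, in the 3 FPKM fits or without either control library (adjusted p from 0.0615 to 0.163), and its log2 change was -0.525 without shMAGED2 replicate 1 and -1.285 without replicate 2. SGTA and EMC6 were not called without either control library or on log2(FPKM + 1) with no filter, and SGTA had a log2 change of 0.56 without shMAGED2 replicate 1. For SGTA and CAMLG the library with the high mitochondrial share lay farther from the controls; its part in the result was not tested.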
